A study of Homo sapiens with 6 samples.

Results

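The miR-200 family is encoded in 2 clusters, one on chromosome 1 (miR-200b, miR-200a and miR-429) and one on chromosome 12 (miR-200c and miR-141). Members were the rows of the count table named for its mature arms, and 7 of the 1000 mature miRNAs listed met this rule, 3 arms from chromosome 1 and 4 from chromosome 12. Both 3p and 5p arms were listed for miR-200c and miR-141. No 5p arm of the chromosome 1 hairpins was listed, so none could be analysed here.

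HEK 293T is a transformed line from human embryonic kidney, and its miRNAs were sequenced from 3 libraries of wild type cells (WT) and 3 of a double knockout of the terminal uridylyltransferases TUT4 and TUT7 (ΔTUT4/7, TENT3A/B in the labels). No treatment was given, and both strains grew in the same serum-containing medium. The knockout was a single strain obtained from another group, so the deletion and other differences between that strain and the WT stock cannot be told apart. TUT4 and TUT7 themselves are not measured by mature miRNA counts, so the strain labels were not checked with them. The replicates are labelled as biological, and the p-values measure the spread between these libraries. The study asked how the loss of both enzymes alters miRNA abundance.

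In epithelial tissues the miR-200 family is known for holding down the transcription factors ZEB1 and ZEB2, which repress E-cadherin. ZEB1 and ZEB2 in turn bind E-box motifs upstream of both miR-200 loci and repress them, so that the family and the factors form a mutual repression loop around the epithelial to mesenchymal transition. A mature miRNA finds its targets mainly through its seed, and 1 arm of the hairpin, here the 3p arm, usually serves as the guide while the other is mostly degraded. TUT4 and TUT7 add uridines to the 3′ ends of precursor miRNAs and of mRNAs.

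The mature sequences are shown because the 3p arms of the 2 clusters share seeds, so that each seed can be supplied from either chromosome. They are RefSeq entries (GRCh38.p14), which held 6 of the 7 members, hsa-miR-141-5p being the one without an entry, and capitals mark the seed, bases 2 to 8. All lie on the plus strand.
hsa-miR-200b-3p, chr1:1167160-1167181: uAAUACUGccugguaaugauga
hsa-miR-429, chr1:1169055-1169076: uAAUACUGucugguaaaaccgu
hsa-miR-200c-3p, chr12:6963742-6963764: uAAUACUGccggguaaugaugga
hsa-miR-200a-3p, chr1:1167916-1167937: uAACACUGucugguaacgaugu
hsa-miR-141-3p, chr12:6964155-6964176: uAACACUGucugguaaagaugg
hsa-miR-200c-5p, chr12:6963703-6963724: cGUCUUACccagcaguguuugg

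The seed AAUACUG was carried by miR-200b-3p, miR-429 and miR-200c-3p, and the seed AACACUG by miR-200a-3p and miR-141-3p. No other arm among the 897 listed arms with a RefSeq sequence carried either of them. The reads were trimmed to 18 bases before alignment, and none of the 6 sequences shared its first 18 bases with another listed arm. How many mismatches the alignment allowed is not known here, and whether reads of arms that differ by 1 base were divided between them was not tested. Counting positions from 1 at the 5′ end, miR-200b-3p and miR-200c-3p differed there by U11G alone, and miR-200a-3p and miR-141-3p by C17A alone. For miR-429 the nearest listed arm was miR-141-3p, with 2 differences.

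On chromosome 1 (hg38), the hairpins MIR200B (1167104-1167198), MIR200A (1167863-1167952) and MIR429 (1169005-1169087) span 1984 bases. They lie inside the RefSeq lncRNA gene MIR200BHG (1162877-1170338), while GENCODE release 44 annotates no host gene on their strand. On chromosome 12, MIR200C (6963699-6963766) and MIR141 (6964097-6964191) span 493 bases in an intron of the lncRNA gene MIR200CHG (6963245-6964447). The MIR200C hairpin begins 454 bases after the annotated start of its host, and the MIR200B hairpin 4227 bases after that of MIR200BHG.

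The libraries held 4338558 to 7967606 counts, and the 7 arms together took 0.0145% to 0.0222% of them. Levels are given as CPM, counts per 1000000 of the library total. WT replicate 3 stood apart from the other WT libraries, since comparing its counts with theirs gave chi-square values of 283.7 and 293.2 per degree of freedom, where WT replicates 1 and 2 gave 99.2 and pairs of ΔTUT4/7 libraries 13.3 to 54.9. Values whose direction turned or that moved past a limit without it are given both ways. Of 22 miRNA markers of other cell types, 8 were listed, and their summed level was 4834 to 5111 CPM in ΔTUT4/7 and 3764 to 4816 CPM in WT, nearly all of it the endothelial miR-126 arms. The markers chosen for striated muscle, neurons and pluripotent cells were not listed. Other miRNAs of these cell types were not among the 22 and were not examined. The leukocyte miR-142 arms were at 32.4 to 37.6 CPM in ΔTUT4/7 and 52.2 to 102.1 CPM in WT, and the part of these signals in the results below was not tested.

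All 3 chromosome 1 arms decreased in ΔTUT4/7, each by a fitted fold of more than 10, neither chromosome 12 3p arm changed by the test, and both chromosome 12 5p arms increased. All 7 arms passed the limit of a count above 7 in at least 1 library, which 826 of the 1000 miRNAs did. miR-200b-3p and miR-429 passed it through WT libraries alone, and miR-200c-5p through ΔTUT4/7 libraries alone. For these arms the limit itself favoured a difference between the strains. An arm counted as changed when its fitted change was 2-fold or more and its p in edgeR's quasi-likelihood test was under 0.05 after Benjamini-Hochberg adjustment over the 826. By this rule 3 of the 7 arms were lower and 2 higher in ΔTUT4/7, where 13.6% of all tested miRNAs were lower and 16.5% higher. The median log2 fold change was -0.35 over the 7 arms and 0.013 over all tested miRNAs. The strains did not overlap for 6 arms, 4 of them lower and 2 higher in ΔTUT4/7, against 29.5% and 28.8% of all tested miRNAs.

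**Figure D1:**
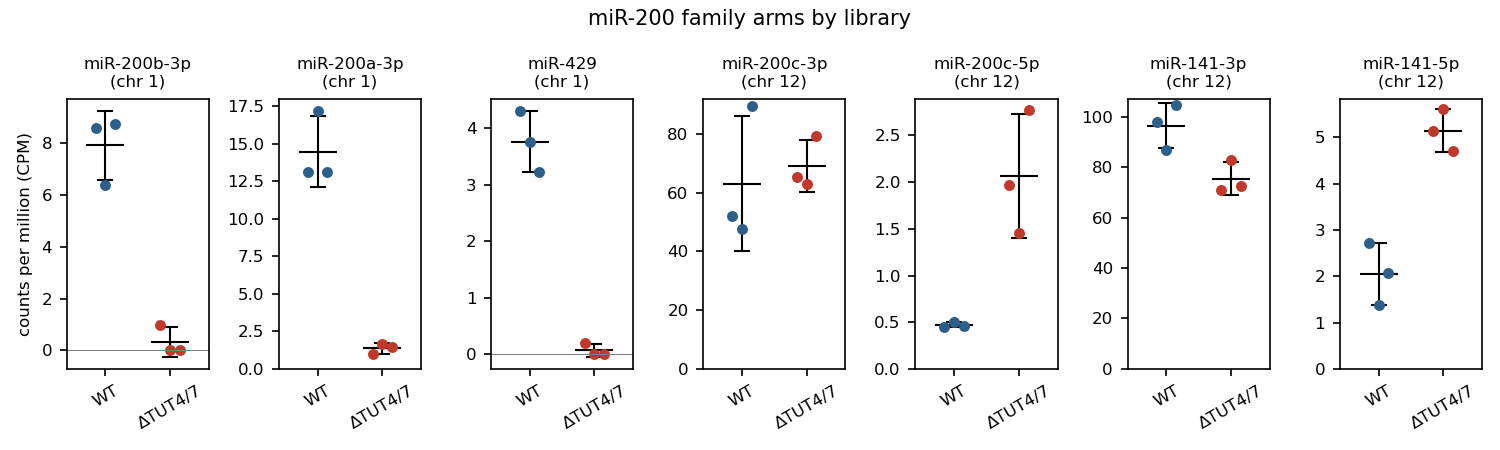
Level of each arm in CPM in the 3 WT (blue) and 3 ΔTUT4/7 (red) libraries, 1 panel per arm with its own linear axis, with long lines at the strain means and bars of 1 SD. The chromosome 1 arms sit at 3.23 to 17.2 CPM in WT and at 0 to 1.66 CPM in ΔTUT4/7, while the points of miR-200c-3p overlap between the strains.

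Of the chromosome 1 cluster, miR-200a-3p had the most counts. It had 58, 137 and 57 counts in WT replicates 1, 2 and 3, or 13.1, 17.2 and 13.1 CPM, and 5, 8 and 7 counts in ΔTUT4/7, or 0.985, 1.66 and 1.49 CPM. Every ΔTUT4/7 library was below every WT library. In bulk libraries, fewer cells with a miRNA and less of it per cell cannot be told apart. The mean was 1.38 ± 0.353 CPM (SD, n = 3) in ΔTUT4/7 and 14.5 ± 2.34 CPM in WT. The fitted decrease was 10.5-fold (log2 fold change -3.39, SE 0.31, adjusted p = 3.97e-06, edgeR with Benjamini-Hochberg adjustment), and the pooled counts gave a WT over ΔTUT4/7 ratio of 11.0 with a 95% counting interval of 6.96 to 18.3.

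For miR-200b-3p, which carries the same seed as miR-200c-3p, WT replicates 1, 2 and 3 had 38, 51 and 38 counts, or 8.61, 6.40 and 8.76 CPM. ΔTUT4/7 replicate 1 had 5 counts, or 0.985 CPM, and replicates 2 and 3 had 0. The strains did not overlap, and all of the ΔTUT4/7 signal came from 1 library. The mean was 0.328 ± 0.569 CPM in ΔTUT4/7 and 7.92 ± 1.32 CPM in WT (SD, n = 3). The fitted decrease was 21.5-fold (log2 fold change -4.42, SE 0.63, adjusted p = 1.58e-04, edgeR with Benjamini-Hochberg adjustment), with a pooled ratio of 22.1 (9.24 to 69.4 by counting error). When ΔTUT4/7 replicate 1 was left out, no count was left in that strain, and with a floor of 3 counts over its other libraries the level was at least 25.1-fold lower.

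The third arm of the cluster, miR-429, had 19, 30 and 14 counts in WT, or 4.31, 3.77 and 3.23 CPM, and 1, 0 and 0 counts in ΔTUT4/7. It was the rarest of the 3 in both strains. Its log2 fold change was -5.36 (SE 0.70, adjusted p = 8.94e-05, edgeR with Benjamini-Hochberg adjustment). DESeq2 gave -5.72 with a larger SE of 1.29. With 1 count in ΔTUT4/7 the size of the decrease was poorly bounded, at a pooled ratio of 54.9 (95% counting interval 9.50 to 2202.9). Leaving out the library with that count, it was at least 11.9-fold. On the log2(CPM + 1) scale of limma, which understates changes of rare arms, the 3 log2 fold changes were -2.70 for miR-200a-3p, -2.82 for miR-200b-3p and -2.16 for miR-429, all of them still called.

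The chromosome 12 guide arms were the most abundant of the family. miR-200c-3p had 230, 380 and 388 counts in WT, or 52.1, 47.7 and 89.4 CPM, and 331, 303 and 372 counts in ΔTUT4/7, or 65.2, 63.0 and 79.3 CPM. The strains overlapped, WT replicate 3 lying above and the other WT libraries below all ΔTUT4/7 libraries. Means were 69.2 ± 8.86 CPM in ΔTUT4/7 and 63.1 ± 22.9 CPM in WT (SD, n = 3), and the log2 fold change of 0.14 had a 95% interval of -0.39 to 0.66 (SE 0.24, adjusted p = 0.673, edgeR with Benjamini-Hochberg adjustment). WT replicate 3 decided this value, since without it the log2 fold change was 0.47 (adjusted p = 0.0377, edgeR with Benjamini-Hochberg adjustment), still under the 2-fold limit, and without WT replicate 2 it was -0.033.

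For miR-141-3p, the partner of miR-200a-3p by seed, the counts were 431, 692 and 453 in WT and 360, 398 and 340 in ΔTUT4/7. These were 97.7, 86.9 and 104.4 CPM in WT and 71.0, 82.8 and 72.5 CPM in ΔTUT4/7. The ΔTUT4/7 libraries were all below the WT libraries, by a narrow margin between ΔTUT4/7 replicate 2 and WT replicate 2. The means were 75.4 ± 6.41 and 96.3 ± 8.86 CPM (SD, n = 3). The log2 fold change of -0.35 did not pass the test (SE 0.17, 95% interval -0.72 to 0.017, adjusted p = 0.106, edgeR with Benjamini-Hochberg adjustment).

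**Figure D2:**
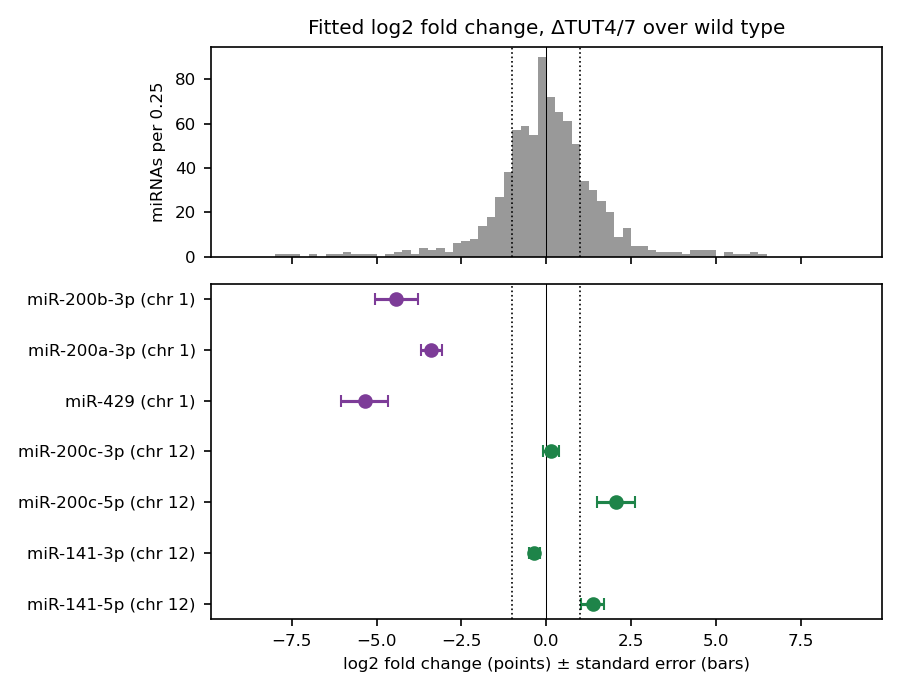
Log2 fold change, ΔTUT4/7 over WT, of all 826 tested miRNAs as a histogram (top) and of each arm as a point (bottom). Bars are standard errors derived from the edgeR test. Purple is chromosome 1 and green chromosome 12, and dotted lines mark the 2-fold limits. The 3 chromosome 1 arms lie between -5.36 and -3.39, the chromosome 12 3p arms at -0.35 and 0.14, and the 5p arms at 1.37 and 2.06.

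The hairpins of the chromosome 12 cluster are shown because their 5p and 3p arms did not move alike. Capitals mark the mature arms at the coordinates of the count table, the 5p arm first, in the RefSeq hairpins (GRCh38.p14, plus strand).
MIR200C, chr12:6963699-6963766: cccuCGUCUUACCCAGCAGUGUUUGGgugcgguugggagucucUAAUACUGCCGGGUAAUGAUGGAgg
MIR141, chr12:6964097-6964191: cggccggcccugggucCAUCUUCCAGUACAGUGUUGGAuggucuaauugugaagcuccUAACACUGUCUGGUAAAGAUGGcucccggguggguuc

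miR-141-5p had 12, 11 and 9 counts in WT, or 2.72, 1.38 and 2.07 CPM, and 26, 27 and 22 counts in ΔTUT4/7, or 5.12, 5.61 and 4.69 CPM. All ΔTUT4/7 libraries were above all WT libraries. It rose 2.59-fold, from 2.06 ± 0.670 to 5.14 ± 0.461 CPM (SD, n = 3; log2 fold change 1.37, SE 0.34, adjusted p = 0.00609, edgeR with Benjamini-Hochberg adjustment), with a pooled ratio of 2.69 and a 95% counting interval of 1.76 to 4.20. The 3p arm of the same hairpin had the opposite sign.

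miR-200c-5p was the rarest member in WT, with 2, 4 and 2 counts, or 0.453, 0.502 and 0.461 CPM. ΔTUT4/7 had 10, 7 and 13 counts, or 1.97, 1.46 and 2.77 CPM, again without overlap. The rise was 4.16-fold (log2 fold change 2.06, SE 0.55, adjusted p = 0.00958, edgeR with Benjamini-Hochberg adjustment), and 8 counts in all of WT left a 95% counting interval of 1.93 to 10.9 around the pooled ratio of 4.30. Both rises stayed past the 2-fold limit on the log2(CPM + 1) scale of limma, at 1.04 for miR-200c-5p and 1.03 for miR-141-5p.

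Within a hairpin the share of the 5p arm does not depend on the library total. For miR-141 the 5p arm took 2.71%, 1.56% and 1.95% of the hairpin's counts in WT replicates 1, 2 and 3 and 6.74%, 6.35% and 6.08% in ΔTUT4/7. For miR-200c it took 0.862%, 1.04% and 0.513% in WT and 2.93%, 2.26% and 3.38% in ΔTUT4/7. In neither hairpin did the strains overlap. For miR-200c, however, the exact binomial interval of every WT library overlapped that of every ΔTUT4/7 library. The upper bounds were 3.08%, 2.65% and 1.84% in WT, and the lower bounds 1.42%, 0.913% and 1.81% in ΔTUT4/7. For miR-141 the interval of WT replicate 1, from 1.41% to 4.68%, overlapped those of all ΔTUT4/7 libraries, whose lower bounds were 4.45%, 4.23% and 3.85%. The intervals of the other WT libraries overlapped none of them. The mean 5p share went from 2.07 ± 0.582% to 6.39 ± 0.331% for miR-141 and from 0.806 ± 0.269% to 2.86 ± 0.563% for miR-200c (SD, n = 3).

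**Figure D3:**
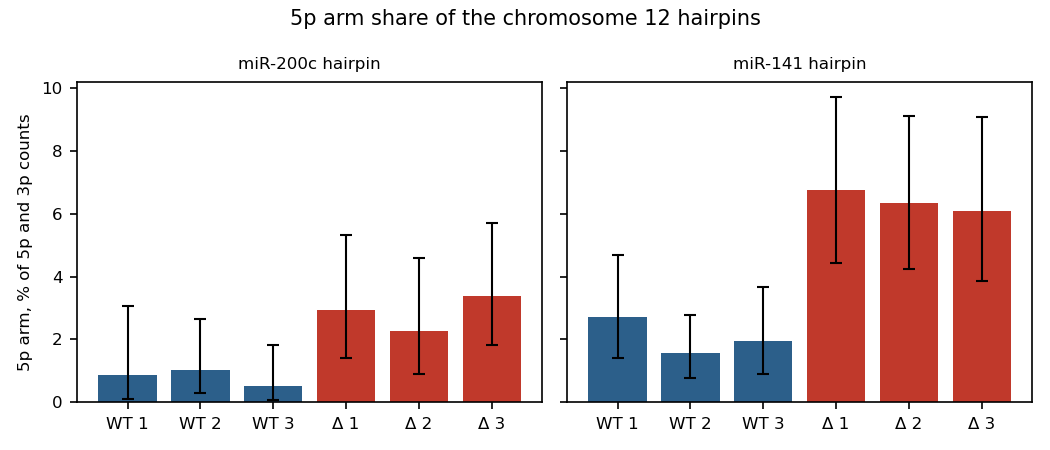
Share of the 5p arm in the counts of the miR-200c and miR-141 hairpins, in percent, for each library, with exact 95% binomial intervals as error bars (Δ, ΔTUT4/7). The bars reach 0.513% to 1.04% in WT and 2.26% to 3.38% in ΔTUT4/7 for miR-200c, and 1.56% to 2.71% and 6.08% to 6.74% for miR-141.

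The 5p to 3p ratio was 3.30-fold higher in ΔTUT4/7 for miR-141 (log2 difference 1.72) and 3.73-fold higher for miR-200c (1.90). An exact two-sided permutation test of each gave p = 0.1, the smallest that 3 against 3 libraries allow, and 0.125 after Benjamini-Hochberg adjustment over the 5 within-library ratios tested. Among 200 hairpins whose 2 arms were both tested under the same name, 111 moved toward the 5p arm. Of the 200, 8 did so by at least as much as miR-141, with miR-200c in position 6 and miR-141 in position 8. Hairpins whose arm names differ in more than 5p and 3p were left out. miR-200c-5p was tested only through its ΔTUT4/7 counts, which favours a high position for miR-200c. The median size of the shift over these hairpins was 0.57 (log2). Of the 48 hairpins in which the 5p arm was the rarer and under 10 CPM, 30 moved toward it, with a median shift of 0.41.

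Summed by cluster, the chromosome 1 arms reached 26.1, 27.4 and 25.1 CPM in WT and 2.17, 1.66 and 1.49 CPM in ΔTUT4/7. The means of 26.2 ± 1.12 and 1.77 ± 0.351 CPM (SD, n = 3) differ 14.8-fold. The chromosome 12 arms summed to 153.0, 136.4 and 196.4 CPM in WT and 143.3, 152.8 and 159.3 CPM in ΔTUT4/7, and here the strains overlapped, with means of 161.9 ± 31.0 and 151.8 ± 8.07 CPM. Their log2 ratio was -0.093, and 0.069 without WT replicate 3. No test was made on these sums, which combine chosen members. The chromosome 1 arms accounted for 14.6%, 16.7% and 11.3% of the family's counts in WT and for 1.49%, 1.08% and 0.928% in ΔTUT4/7. The highest upper bound of their exact 95% intervals in ΔTUT4/7 was 2.65%, below the lowest lower bound in WT of 9.41%.

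In the sums by seed, the decreased arms were the minor source of both seeds. The AACACUG arms, miR-200a-3p and miR-141-3p, summed to 110.8, 104.0 and 117.6 CPM in WT and 71.9, 84.4 and 74.0 CPM in ΔTUT4/7. The strains did not overlap, and the ratio of the means of 76.8 ± 6.69 and 110.8 ± 6.75 CPM (SD, n = 3) was 0.693. The AAUACUG arms, miR-200b-3p, miR-429 and miR-200c-3p, summed to 65.0, 57.9 and 101.4 CPM in WT and 66.4, 63.0 and 79.3 CPM in ΔTUT4/7. These strains overlapped, with means of 74.8 ± 23.4 and 69.6 ± 8.62 CPM. The log2 ratio of the means was -0.53 for AACACUG and -0.10 for AAUACUG, and the difference between them was not tested. Without WT replicate 3 they were -0.48 and 0.18, so the sign of the AAUACUG ratio rested on that library.

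**Figure D4:**
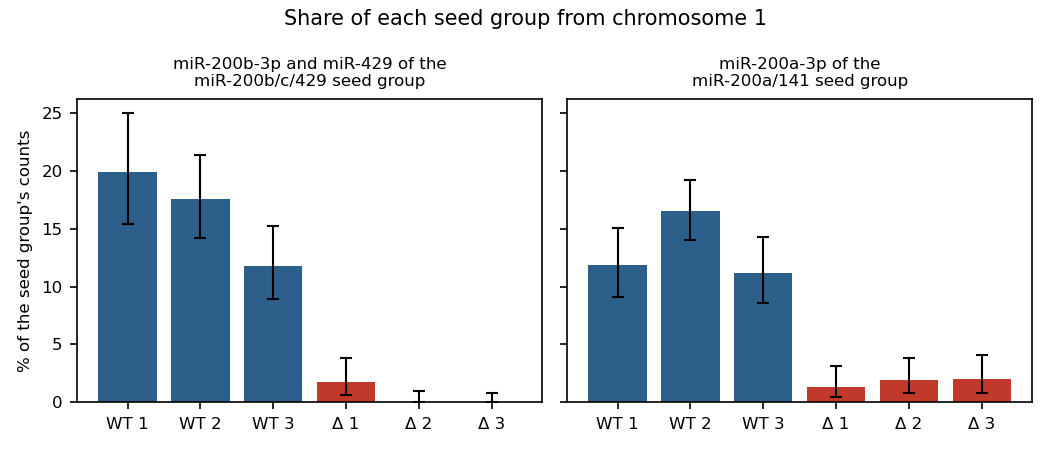
Share of each seed's counts that came from the chromosome 1 cluster, in percent, for each library, with exact 95% binomial intervals and, where no count was seen, the limit set by 3 counts (Δ, ΔTUT4/7). WT bars stand at 11.2% to 19.9% and ΔTUT4/7 bars at 0% to 2.02%.

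Chromosome 1 supplied 19.9%, 17.6% and 11.8% of the AAUACUG counts in WT replicates 1, 2 and 3. In ΔTUT4/7 it supplied 1.78% in replicate 1, 0 of 303 counts in replicate 2 (which allows a share of up to 0.990%) and 0 of 372 in replicate 3 (up to 0.806%). For AACACUG the chromosome 1 share was 11.9%, 16.5% and 11.2% in WT and 1.37%, 1.97% and 2.02% in ΔTUT4/7. Both seeds thus came almost wholly from the chromosome 12 cluster in ΔTUT4/7.

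Ratios of arms with a common seed compare the clusters free of the library total. The ratio of miR-200a-3p to miR-141-3p was 8.36-fold lower in ΔTUT4/7 (log2 difference -3.06), and the ratio of miR-200b-3p to miR-200c-3p fell from a mean of 0.132 ± 0.0337 to 0.00504 ± 0.00872 (SD, n = 3). Each gave p = 0.1 in an exact two-sided permutation test, again the smallest possible, and 0.125 after adjustment over the 5 ratios. miR-141-3p and miR-200c-3p, which come from neighbouring hairpins, had a ratio 0.689 times as high in ΔTUT4/7 as in WT, and this difference was not separated from the spread between libraries (p = 0.2 in the exact permutation test, 0.2 adjusted). The log2 values of that ratio were 0.91, 0.86 and 0.22 in WT and 0.12, 0.39 and -0.13 in ΔTUT4/7, so that WT replicate 3 lay among the ΔTUT4/7 libraries. The log2 difference was -0.54, and -0.76 without WT replicate 3.

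The order of the arms also differed between the strains. In WT miR-141-3p and miR-200c-3p came first with overlapping ranges, followed by miR-200a-3p, miR-200b-3p, miR-429, miR-141-5p and miR-200c-5p, each below all libraries of the one before. In ΔTUT4/7 the first 2 again overlapped, miR-141-5p came next, miR-200c-5p and miR-200a-3p overlapped at 1.46 to 2.77 and 0.985 to 1.66 CPM, and miR-200b-3p and miR-429 came last with overlapping ranges. The highest miR-200b-3p library there equalled the lowest of miR-200a-3p, at 5 counts each in replicate 1. Among all 1000 miRNAs ranked by mean CPM, miR-200b-3p stood at 398 in WT and 946 in ΔTUT4/7 and miR-200a-3p at 355 and 670. The guide arms of chromosome 12 kept nearly the same places, with miR-200c-3p at 214 and 221 and miR-141-3p at 192 and 212.

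The promoters of the host genes are printed because each cluster has its own host gene and start site. Whether promoter activity differed between the strains was not tested. Each window runs from 250 bases before to 50 bases after the annotated RefSeq start (GRCh38.p14, plus strand), and capitals mark CACCTG or CAGGTG, the E-box on either strand to which ZEB1 and ZEB2 bind.
MIR200BHG, chr1:1162627-1162926: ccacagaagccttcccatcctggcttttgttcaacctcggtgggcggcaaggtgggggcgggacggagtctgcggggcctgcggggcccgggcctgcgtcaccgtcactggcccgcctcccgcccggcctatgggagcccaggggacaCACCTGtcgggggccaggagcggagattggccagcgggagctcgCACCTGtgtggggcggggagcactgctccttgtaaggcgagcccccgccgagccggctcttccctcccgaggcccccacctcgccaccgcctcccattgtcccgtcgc
MIR200CHG, chr12:6962995-6963294: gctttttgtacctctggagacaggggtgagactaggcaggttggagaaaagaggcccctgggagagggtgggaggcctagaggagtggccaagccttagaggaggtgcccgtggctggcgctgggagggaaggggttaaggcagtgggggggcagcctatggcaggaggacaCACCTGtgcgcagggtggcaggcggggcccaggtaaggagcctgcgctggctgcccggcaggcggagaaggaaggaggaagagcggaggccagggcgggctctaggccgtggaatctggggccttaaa

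The MIR200BHG window held CACCTG 2 times, beginning at -102 and -58 from the start site, and the MIR200CHG window held it once, at -78. At least 1 such motif was present in 20.6% of 35116 RefSeq promoters of this length and at least 2 in 3.49%. The longest run of bases that the 2 windows share, ggacaCACCTGt, is 12 bases long, begins at -107 and -83, and includes a motif in each. It was found in 6 of the 35116 promoters on either strand (0.0171%), a count that includes these 2 windows. Because the run was chosen for being in both windows, this share is not a test of how unusual it is. These matches describe the sequence only, and binding was not measured in the data used here.

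Other epithelial-associated miRNAs were set beside the family, from a list that shares no arm with it: miR-34a, miR-34b and miR-34c, which are targets of p53, the miR-183, miR-96 and miR-182 cluster of sensory epithelia, miR-203a and miR-205 of squamous epithelium, and miR-375 of endocrine and gut epithelium. Of its 13 listed arms, all tested, 6 were lower in ΔTUT4/7 and 0 higher (edgeR with Benjamini-Hochberg adjustment), and 10 had all ΔTUT4/7 libraries below all WT libraries, beside 13.6% lower, 16.5% higher and 29.5% without overlap below WT over all tested miRNAs. The median log2 fold change was -0.54, and 12 of 13 were below 0. At an unadjusted p under 0.05, 10 arms were below 0 and 0 above, and DESeq2 and limma also called 0 higher. The 6 lower arms were the 5p and 3p arms of the miR-34 miRNAs, so the list's calls came from 1 family. The largest decreases were those of miR-34b-5p (41.6 ± 7.02 CPM in WT and 0.348 ± 0.253 in ΔTUT4/7, log2 fold change -6.82) and miR-34c-5p (-6.44). The other 7 arms lay between -0.54 and 0.20 and were not called.

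A mesenchymal-associated list gave 20 tested arms, of which 5 were lower in ΔTUT4/7 and 0 higher (edgeR with Benjamini-Hochberg adjustment), again beside 13.6% and 16.5% of all tested miRNAs. Its tested arms came from miR-10b, miR-21, miR-22, miR-99a, miR-100, miR-125b, miR-143, miR-199a, miR-199b, miR-221 and miR-222. The lower arms were miR-99a-5p, miR-99a-3p, miR-100-5p, miR-125b-5p and miR-143-3p. The paper places miR-99a and miR-125b in the miR-10 family, so these calls are not all separate. The median log2 fold change was -0.69, with 15 of 20 below 0. The strains did not overlap for 12 arms lower and 2 higher in ΔTUT4/7, against 29.5% and 28.8% of all tested miRNAs. At an unadjusted p under 0.05, 12 arms were below 0 and 2 above, and DESeq2 and limma called 0 higher. DESeq2 called 7 lower and limma 4. The largest decreases were those of miR-143-3p, a miRNA of smooth muscle and fibroblasts (11.8 ± 1.13 CPM in WT and 2.04 ± 1.03 in ΔTUT4/7, log2 fold change -2.51), and of miR-125b-5p (-1.70). Both lists thus had medians below 0, and at the 2-fold limit only the miR-200 family had arms called in each direction. Below that limit the mesenchymal list also held rises without overlap, in miR-22-5p and miR-221-5p. Their log2 fold changes were 0.84 (adjusted p = 0.00456) and 0.79 (adjusted p = 0.00281, both edgeR with Benjamini-Hochberg adjustment). Their 3p arms were at -0.049 and 0.16.

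**Figure D5:**
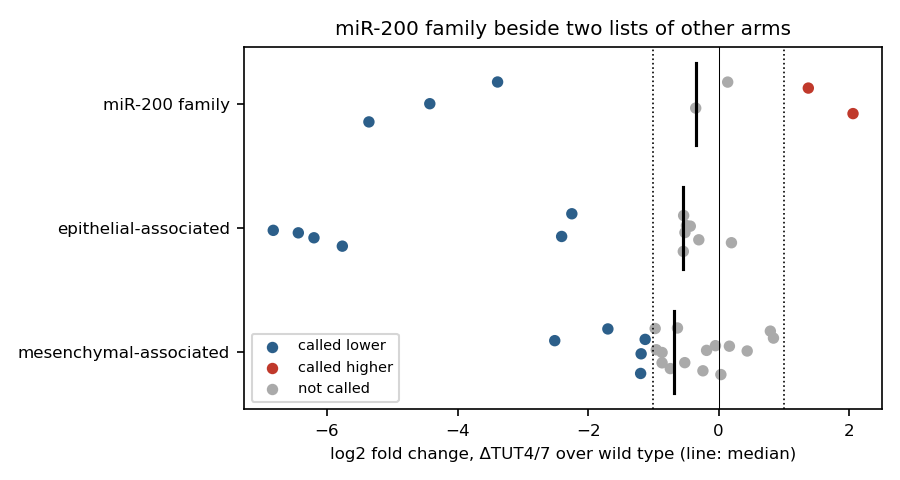
Log2 fold change, ΔTUT4/7 over WT, of each tested arm of the miR-200 family and of the epithelial- and mesenchymal-associated lists, with vertical bars at the medians of -0.35, -0.54 and -0.69. Blue points are called lower and red points higher, and red points appear in the miR-200 family alone, at 1.37 and 2.06.

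The miRNAs whose profile over the 6 libraries lay nearest to each cluster sum were sought among 735 tested miRNAs outside the family with a mean of at least 1 CPM. Likeness was the root mean square difference of log2(CPM + 1) centred on each miRNA's own mean. Nearest to the chromosome 1 cluster were miR-653-5p on chromosome 7 (0.292; 27.1 ± 4.22 CPM in WT and 2.61 ± 0.676 in ΔTUT4/7), miR-34c-3p on chromosome 11 (0.297; 16.2 ± 1.92 and 0.277 ± 0.129 CPM) and miR-4778-3p on chromosome 2 (0.303). This scale gives little weight to differences below 1 CPM. The log2 fold change of miR-34c-3p was -5.76, where the log2 ratio of the chromosome 1 sum was -3.88. Nearest to the chromosome 12 cluster were miR-125a-3p on chromosome 19 (0.0510; 88.9 ± 19.7 and 80.1 ± 7.77 CPM), miR-424-5p on chromosome X (0.0648) and miR-4484 on chromosome 10 (0.0908). In miR-125a-3p, as in the chromosome 12 sum, WT replicate 3 was the highest library.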

How the data were processed

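Libraries were made with the QIAseq miRNA Library Kit. Per the labels and methods, the authors trimmed reads to 18 bases, aligned them to hg38 with Bowtie 1.0.0 and quantified them on miRBase version 22 in Partek Flow 10.0.22. The deposited values are estimated counts per mature miRNA, written as whole numbers, in which the authors' Partek E/M step shares out reads matching more than 1 miRNA. The alignment's mismatch setting and any use of molecular identifiers are not given in the sources used here. Counting intervals and floors therefore cover counting error only. The authors' own comparison (ratios, fold changes, p-values) was not used.

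Libraries were grouped by label. Members are printed from a fit over all miRNAs with a highest count above 7 in edgeR 4.0.16 (R 4.3.3), with quasi-likelihood tests, library totals as sizes, no covariate and Benjamini-Hochberg adjustment. The common dispersion was 0.0358. The quasi-likelihood test returns no standard error. Each SE was taken as the absolute log2 fold change divided by the square root of the test's F statistic. The 95% intervals of log2 fold changes were built from these SEs and a t distribution. Ratios used exact two-sided permutation tests over libraries. The ratio of miR-200b-3p to miR-200c-3p was taken on the linear scale because 2 libraries had 0 counts, where a log2 scale had been planned. Single-library shares have exact (Clopper-Pearson) 95% intervals, and a share of 0 the limit set by 3 counts. Of 897 arms matched to RefSeq, 892 had its coordinates. Outside the family, the text names the 2 called arms with the largest change in each direction per list and the 3 nearest profiles per cluster. List members, other called arms and 2 uncalled rising arms with their 3p partners are named to describe the lists. Members and lists were chosen with earlier results of these data known. Python 3.11.15, pandas 2.3.3, numpy 2.4.6, scipy 1.17.1 and matplotlib 3.10.9 were used. The calling was tested on simulated counts with the common dispersion for every miRNA, where it recovered 188 of 194 changes with 4 false calls. The simulation held no spread particular to an arm and no library set apart as WT replicate 3 was, so it does not cover those. Alternatives were TMM and RLE factors, totals minus the 19 let-7 and miR-98 arms, DESeq2 1.42.0, limma 3.58.1 on log2(CPM + 1), other count filters, a replicate block and each library left out.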

Additional observations from a re-analysis of the deposited data

How the results depend on the processing

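The 3 decreases were called under all alternatives run and the 2 increases under all but filterByExpr, which leaves miR-200c-5p untested and so gave 1 increase. Of 97 alternative log2 fold changes of the 7 arms, 96 kept direction and side of the threshold, and with libraries left out miR-200c-3p ranged from -0.033 to 0.47. The decreases ranged from -4.56 to -2.82 for miR-200b-3p, -3.54 to -2.70 for miR-200a-3p and -5.72 to -2.16 for miR-429. These ranges leave out, for miR-200b-3p and miR-429, the fit without ΔTUT4/7 replicate 1, where that strain had no count and a bound alone applies. The increases ranged from 1.04 to 2.28 for miR-200c-5p and 1.03 to 1.62 for miR-141-5p, with highest adjusted p values of 0.0423 and 0.0344. Removing let-7 and miR-98 from the library totals moved the median of all tested miRNAs from 0.013 to 0.23 and the calls over all of them from 112 lower and 136 higher to 81 and 183. With those totals the log2 ratio of the chromosome 1 sum was -3.66, of the chromosome 12 sum 0.13, of the AACACUG sum -0.31 and of the AAUACUG sum 0.12. With libraries left out the same sums ranged from -4.05 to -3.77, -0.20 to 0.069, -0.60 to -0.48 and -0.26 to 0.18, so the sums of chromosome 12 and AAUACUG had no stable direction. Replicate numbers are shared between the strains in the labels, but same-numbered libraries did not deviate together (correlations -0.13, -0.10 and -0.17), and none correlated best with its own number. With the replicate block the family had 3 arms lower and 2 higher, and all tested miRNAs 102 and 131. Depth limits the arms with few counts, above all miR-429 and miR-200b-3p in ΔTUT4/7 and miR-200c-5p in WT.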
